A study of Salmo salar with 79 samples.

Results

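Collagen transcripts were followed through the healing of skin wounds in Atlantic salmon (Salmo salar). The genes are the 11 probes that the study's supplementary gene list files under the category of tissue extracellular matrix collagen, out of 14841 salmonid probes on the array. Of these, 10 stand for collagen chains and 1 for PLOD3, a lysyl hydroxylase. That list holds 771 probe identifiers, and they were selected on the measured difference between the 2 stocking densities on these same arrays. The difference between densities is therefore given here as a description with no test, and the tests address the change with wounding, averaged over both densities.

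The fish were smolts in seawater, wounded with a punch biopsy, and intact skin was taken before wounding. No unwounded skin of a later day was measured, so that wounding and the time that passed after it cannot be told apart. HFD (high fish density) fish were stocked at 100 kg/m3 and control fish at 20 kg/m3, in 1 tank each, so that tank and density cannot be told apart. The densities were not held at these values as the fish grew and were sampled. Wounded skin came from 5 HFD and 5 control fish at each of 7 times, which were 1, 3, 7 and 14 dpw (days post-wounding) and then 36, 43 and 57 dpw, and intact skin from 4 HFD and 4 control fish. Control fish 3 at 57 dpw was measured on 2 arrays, which were averaged, so that 79 arrays stand for 78 fish. No label gives a strain, a sex or an age, and the RNA of a wounded sample came from part of a wound with the skin around it.

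Collagens are the main structural proteins of the dermis. Type I collagen forms the thick fibrils of fish skin, scales and bone, and in teleosts its molecule can hold an a3(I) chain beside a1(I) and a2(I). Type XI collagen is a minor fibrillar collagen that sits in the core of such fibrils and is best known from cartilage, type VI forms beaded microfilaments near cells, and type VII forms the anchoring fibrils that hold the epidermal basement membrane to the dermis. Type X collagen is the short-chain collagen of hypertrophic cartilage in mammals, and in bony fish it is also made by bone-forming cells. PLOD3 hydroxylates lysines of the new chains and adds sugars to them before the molecules leave the cell.

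Of the 11 probes, 5 stand for type I chains. They are collagen a1(I), 2 probes for type I collagen a2 (probe 1 is S48396562, probe 2 is S48395633) and 2 for collagen a3(I) (probe 1 is S48406382, probe 2 is S19096344). Collagen XI a1, Col6a2 (a chain of type VI) and collagen a1(VII) have 1 probe each, and collagen X a1 has 2. None of the 11 identifiers was found among the RefSeq accessions at hand. The Atlantic salmon annotation lists 2 genes under col1a1 symbols and 2 under col10a1 symbols, so signal from near-identical gene copies may be shared by a probe. No probe sequence was at hand, and none is printed.

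A level is the log2 of the background-subtracted spot intensity minus the array's 75th percentile, so that 0 stands for the brightness of the probe at that percentile. Levels of one probe were compared between fish, never with those of another probe. The array's 75th percentile lay between 254.0 and 1066 intensity units, and 60.1% to 94.5% of the probes were well above background. The 8 arrays of slide 10, all from 36 to 57 dpw, held the low end of that range (60.1% to 78.4%), against 75.8% to 94.5% on the other slides. Intact skin and 1 to 14 dpw were scanned in a first campaign, and 36 to 57 dpw in a second. The change from intact skin at 36, 43 and 57 dpw and the scan campaign cannot be told apart. All 11 probes passed the filter, which asked for 8 of 78 fish well above background. All were well above background in all 78 fish but collagen X a1 probe 2, which was so in 74. The epidermal markers were well above background in every fish of every group, except 1 of 6 markers among control fish at 43 dpw.

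Wounded skin of both densities was first set against intact skin. A probe was called when its Benjamini-Hochberg adjusted p in limma was under 0.05 over all 14023 tested probes and its log2 fold change was beyond 0.8. Most of the collagen probes were lower within 1 day of wounding, and all but Col6a2 had their lowest fitted value at 3 or 7 dpw. At 1 dpw 9 of the 11 were called lower and 0 higher, at 3 dpw 10 and 0, and at 7 dpw 10 and 1. Of all tested probes, 17.4%, 23.8% and 19.6% were called lower on these days, and 10.9%, 13.4% and 10.5% higher. At 14 dpw 3 collagen probes were called lower and 1 higher, where 18.1% and 10% of all probes were. At 36, 43 and 57 dpw 4, 5 and 5 were called higher and 0 lower. On those days 9.68%, 8.06% and 8.29% of all probes were called higher and 25.8%, 24.2% and 23% lower. The 7 comparisons share the 8 intact fish.

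The median log2 fold change of the 11 probes was −1.31, −2.26, −1.85 and −0.34 at 1, 3, 7 and 14 dpw, and 0.62, 0.56 and 0.45 at 36, 43 and 57 dpw. The median over all tested probes lay between −0.27 and −0.17 on every day. Other scalings moved that overall median, most in the authors' scaled table, where it was 0.99, 1.00 and 0.99 at 36, 43 and 57 dpw. Set against the overall median of the same scaling, the median of the collagen probes stayed below it at 1, 3 and 7 dpw and above it at 36, 43 and 57 dpw under all 4 scalings. At 14 dpw it was 0.12 above it with normexp background correction and 0.16 to 0.29 below it under the other 3.

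**Figure D1:**
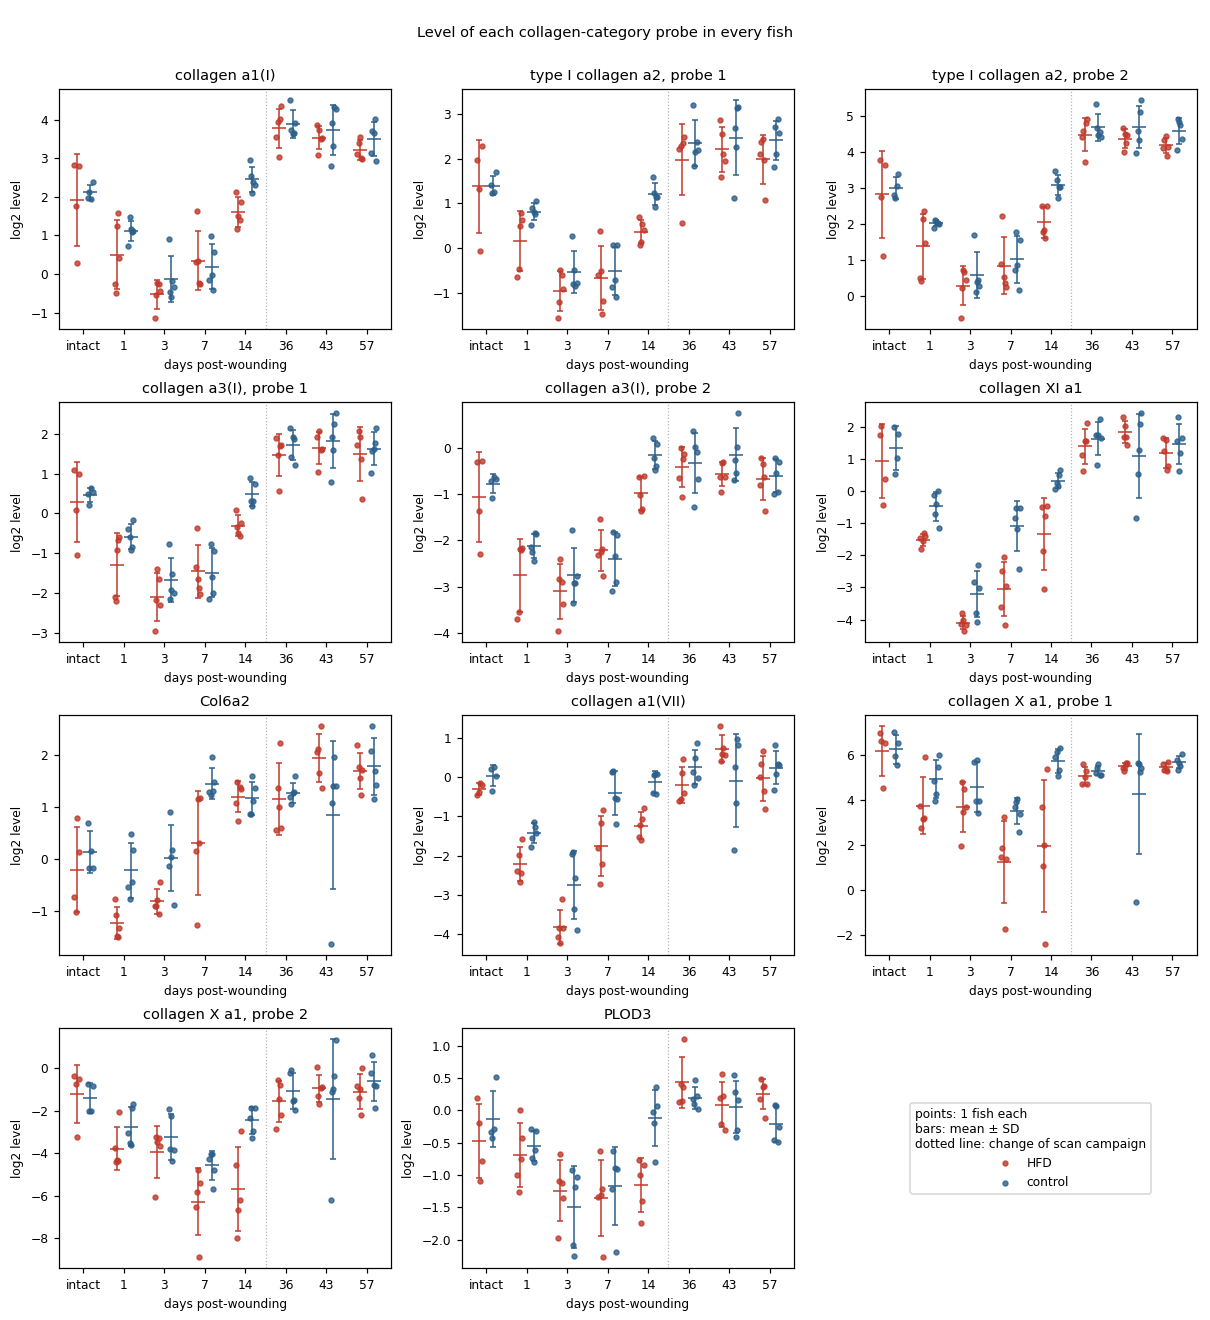
Log2 level (y axis) of the 11 probes, 1 panel each, in intact skin and at 1 to 57 days post-wounding (x axis), with HFD fish on the left of each day and control fish on the right. Each point is 1 fish, bars are the mean ± SD, and the dotted line marks the change of scan campaign. The type I probes lie low at 3 and 7 dpw and high from 36 dpw, and collagen X a1 is low and widely spread in HFD fish at 7 and 14 dpw.

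Type I collagen showed a deep early fall and a late rise. At 3 dpw collagen a1(I) had levels of −1.14, −0.54, −0.22, −0.25 and −0.44 in HFD wounds and 0.90, −0.46, −0.58, −0.17 and −0.34 in control wounds. In intact skin its levels were 2.83, 1.75, 0.30 and 2.79 in HFD fish and 1.97, 2.12, 1.95 and 2.39 in control fish. Thus 9 of 10 wounds lay below every intact fish, even though HFD fish 3 was far below the other intact fish. The probe was 5.05-fold lower in wounds than in intact skin at 3 dpw (log2 fold change −2.34 ± 0.26 SE, adjusted p = 8.1e-12 in limma). The 5 type I probes were close to one another on that day, with log2 fold changes of −2.47 to −2.0.

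At 14 dpw the type I chains were higher than at 7 dpw. Collagen a1(I) then had a lowest, median and highest level of 1.17, 2.11 and 2.95 over the 10 wounds, against 0.30, 2.05 and 2.83 over the 8 intact fish. None of the 5 probes was called, with log2 fold changes between −0.60 and 0.35, but without HFD intact fish 3 type I collagen a2 probe 1 was called lower (−0.84). Against intact skin of the same density, the 5 probes stood at −1.01 to 0.08 in HFD wounds and −0.19 to 0.61 in control wounds. From 7 to 14 dpw all 5 were called higher, by 1.39 to 1.76 on the log2 scale.

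At 36 dpw collagen a1(I) had levels of 3.54, 3.94, 3.02, 4.00 and 4.35 in HFD wounds and 4.50, 3.73, 3.62, 3.64 and 3.90 in control wounds. All 10 were above the highest intact fish at 2.83. The probe was 3.51-fold higher in wounds than in intact skin (log2 fold change 1.81 ± 0.26 SE, limma adjusted p = 2.1e-08). It was still called at 43 dpw (1.62 ± 0.26) and at 57 dpw (1.33 ± 0.26).

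The probes of the same chain stood apart in this late phase, and those of collagen a3(I) did so before it. At 14 dpw collagen a3(I) gave −0.28 for probe 1 and 0.35 for probe 2, neither called. Type I collagen a2 probe 2 was called higher at 36, 43 and 57 dpw (log2 fold changes 1.68, 1.63 and 1.48). Probe 1 of that chain gave 0.78, 0.95 and 0.82 and was called at 43 and 57 dpw. These values lay close to the fold threshold. The call at 57 dpw was lost in 12 of 31 alternatives, and the value at 36 dpw was called in 9 of 31. At 43 dpw the call was lost only without HFD intact fish 3 (0.71). For collagen a3(I), probe 1 was called at all 3 days (1.22, 1.36 and 1.18), whereas probe 2 gave 0.55, 0.56 and 0.28 and was not called. Whether each pair reads 1 gene or different copies is not known from the files. Against the overall median, the 5 type I probes were higher at 36, 43 and 57 dpw under all 4 scalings. The smallest such value was 0.06, for collagen a3(I) probe 2 at 57 dpw in the authors' scaled table.

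**Figure D2:**
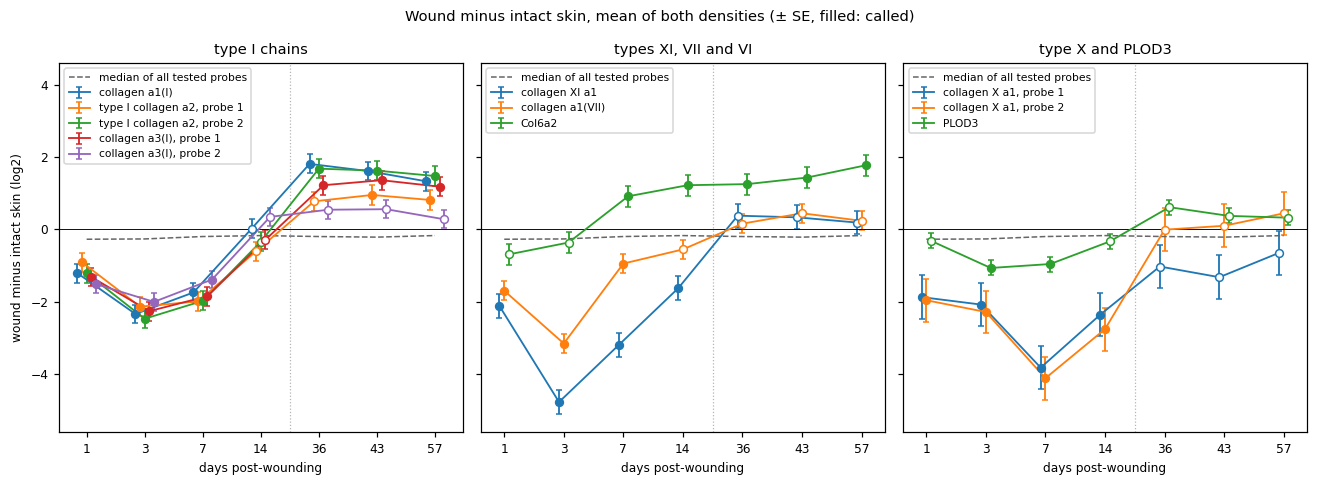
Log2 fold change of wounded over intact skin (y axis), mean of both densities, at 7 days after wounding (x axis). Bars are the SE of the limma fit, filled points passed the call, open points did not, the dashed line is the median of all tested probes and the dotted line marks the change of scan campaign. The type I probes run together to 7 dpw and lie further apart from 14 dpw on, collagen XI a1 reaches −4.77 at 3 dpw, and Col6a2 alone is above 0 at 7 dpw.

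The deepest fall was that of collagen XI a1. At 3 dpw its levels were −4.13, −3.81, −4.02, −4.36 and −4.17 in HFD wounds and −2.82, −3.78, −4.08, −2.31 and −3.02 in control wounds. Its levels in intact skin were 1.73, 2.01, −0.42 and 0.37 in HFD fish and 2.00, 0.52, 1.02 and 1.76 in control fish. All 10 wounds lay below every intact fish, and the fall was 27.3-fold (log2 fold change −4.77 ± 0.33 SE, limma adjusted p = 5.7e-20). It was already 4.34-fold lower at 1 dpw. The probe rose at each later step of the first 2 weeks, by 1.57 on the log2 scale from 3 to 7 dpw and by 1.57 from 7 to 14 dpw. It was still called lower at 14 dpw (−1.63 ± 0.33). From 36 dpw on its log2 fold change was 0.38, 0.33 and 0.19 and was not called.

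Collagen a1(VII) also fell early, and it was no longer called by 14 dpw. Its levels at 3 dpw were −4.09, −3.85, −4.23, −3.10 and −3.84 in HFD wounds and −1.97, −1.91, −3.36, −2.57 and −3.90 in control wounds. The 8 intact fish lay between −0.46 and 0.27. The fall was 8.90-fold (log2 fold change −3.15 ± 0.26 SE, limma adjusted p = 1.0e-16). By 7 dpw it had risen by 2.21 on the log2 scale from 3 dpw and was 1.92-fold lower than in intact skin. Against intact skin of the same density it was then −1.45 ± 0.37 SE in HFD wounds and −0.44 ± 0.37 SE in control wounds. At 14 dpw the mean of both densities was −0.55 ± 0.26 SE and no longer called, with 5 of 10 wounds, all of them HFD, below every intact fish.

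Col6a2 was higher in wounds than in intact skin from 7 dpw on. At 1 dpw 4 of 10 wounds lay below every intact fish. Its log2 fold change was −0.69 at 1 dpw (limma adjusted p = 0.040, short of the fold threshold) and −0.36 at 3 dpw, neither called. At 7 dpw it had risen to 0.92 ± 0.29 (limma adjusted p = 0.0058), and at 14 dpw to 1.22 ± 0.29. Its levels at 14 dpw were 1.07, 1.49, 0.72, 1.38 and 1.35 in HFD wounds and 0.87, 0.87, 1.59, 1.12 and 1.37 in control wounds. The intact fish had −0.73, −1.02, 0.79 and 0.14 in HFD skin and 0.68, −0.17, 0.15 and −0.17 in control skin. All but 1 wound were above every intact fish. The probe stayed high, with log2 fold changes of 1.25, 1.43 and 1.78 at 36, 43 and 57 dpw, and was 3.43-fold higher than intact skin at the last day. It was the only collagen probe called higher at 7 and 14 dpw under the main scaling. In the authors' scaled table collagen a3(I) probe 2 was called higher too at 14 dpw (0.89).

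Collagen X a1 reached its low at 7 dpw. Both probes were lower at 1 dpw (−1.87 and −1.96) and at 3 dpw (−2.08 and −2.28), and at 7 dpw they stood at −3.82 ± 0.60 SE and −4.11 ± 0.59 SE on that scale (adjusted p = 2.0e-07 and 2.4e-08 in limma). Probe 1 had levels of 1.46, 1.86, 3.22, −1.72 and 1.37 in HFD wounds and 3.66, 3.88, 4.03, 2.55 and 3.35 in control wounds at 7 dpw. In intact skin it had 6.96, 6.59, 4.51 and 6.52 in HFD fish and 6.99, 5.93, 5.52 and 6.50 in control fish. All 10 wounds lay below every intact fish. From 3 to 7 dpw both probes fell further, by 1.74 and 1.83 on the log2 scale, over days in which collagen XI a1 and collagen a1(VII) rose. At 14 dpw they were still called lower (−2.36 and −2.76) in the mean of both densities. Against intact skin of the same density, probe 1 was then −4.20 ± 0.85 SE in HFD wounds and −0.51 ± 0.85 SE in control wounds. Probe 2 was −4.46 in HFD wounds and −1.05 in control wounds. From 36 dpw neither was called under the main scaling, but probe 1 was called lower at 36 dpw in 1 of 31 alternatives and at 43 dpw in 8 of 31. At 43 dpw it stood at −1.59 without HFD intact fish 3 and at −1.70 without slide 10, both called. Without control fish 1 of that day it was −0.72 and was not called. Probe 1 gave −1.02, −1.32 and −0.65, and probe 2 gave −0.01, 0.10 and 0.45. Probe 2 was not well above background in 4 fish, and its lowest levels are less certain than those of probe 1.

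PLOD3 was called lower at 3 and 7 dpw and on no other day. Its log2 fold change was −0.32 at 1 dpw and was not called, then −1.07 ± 0.21 at 3 dpw and −0.96 ± 0.21 at 7 dpw, both called. Over the 10 wounds at 3 dpw its lowest, median and highest levels were −2.25, −1.16 and −0.68, against −1.09, −0.32 and 0.52 over the intact fish, and 6 of 10 wounds lay below every intact fish. On the later days it was −0.33, 0.62, 0.37 and 0.32 and was not called. Relative to the overall median it stood at −0.76 at 7 dpw, and at −0.25 with normexp background correction. In the authors' scaled table it was not called on that day.

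Steps between wounded days were tested as well, as differences that do not use the level of the intact fish. They came from the same fit, so the intact fish still entered the estimate of the spread. From 1 to 3 dpw 6 probes were called lower and 0 higher, where 8.39% of all tested probes were called lower and 5.56% higher. These were 4 type I probes, collagen XI a1 and collagen a1(VII). From 3 to 7 dpw 3 were called higher and 2 lower, where 5.44% and 3.13% of all probes were. The 3 were collagen XI a1, collagen a1(VII) and Col6a2, and the 2 were the collagen X a1 probes. From 7 to 14 dpw 6 were called higher and 0 lower, where 1.69% of all probes were called higher and 0.991% lower, and these were the 5 type I probes and collagen XI a1. Between 36, 43 and 57 dpw 0 of 11 probes were called by limma in any of the 3 steps, and 0 had an unadjusted p under 0.05. The share of all probes called in either direction was 0.563% from 36 to 43 dpw, 0.235% from 43 to 57 dpw and 2.15% from 36 to 57 dpw.

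The fall on the first days was also present within slides. On slides that held both intact and wounded fish, 33 of 33 differences (11 probes on 3 slides) were below 0 at 1 dpw and 33 of 33 at 3 dpw, with medians of −1.70 and −1.96. Each difference set 2 wounded against 2 intact fish, and the 11 probes of a slide share these fish, so the counts are not independent. The share of all probes below 0 within slides was not taken. Across all fish the median of all tested probes was itself −0.27 at 1 dpw and −0.26 at 3 dpw. At 7 dpw 29 of 33 were below 0, and Col6a2 accounted for 3 of the 4 above it. At 14 dpw 18 of 33 were below 0, with a median of −0.05. The intact fish of a slide were of 1 density, so that density is not balanced in these values. At 3 and 7 dpw each difference set wounds of 1 density against intact fish of the other. At 14 dpw most of the wounds were from control fish, so the values of that day mainly describe control wounds.

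HFD fish 3 of the intact skin stood apart for the type I and type X probes, and its muscle markers (5, mean level −1.74), erythrocyte markers (3, −3.37) and fat markers (2, −1.29) were the lowest of the 4 HFD intact fish, while its epidermal, leukocyte and SOX-9 means lay within the range of the other 3. The part of these values in the result was not tested. Without it the number of probes called against intact skin was 9, 10, 11, 5, 4, 5 and 4 from 1 to 57 dpw. Type I collagen a2 probe 1 was then called lower at 14 dpw (−0.84, adjusted p = 0.0059 in limma) and was not called at 43 dpw (0.71) or 57 dpw (0.57). Collagen X a1 probe 1 was then called lower at 43 dpw (−1.59), so that the 5 calls of that day were 4 higher and 1 lower.

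The fish were next compared between densities, as a description only, since these differences chose the probes. In intact skin no slide held fish of both densities, so that slide and density cannot be told apart there. From 1 to 14 dpw most HFD fish lay on slides without control fish of the same day. Slide and density therefore largely went together on those days. All differences are HFD minus control on the log2 scale. Among the 11 probes the difference of largest size over the 8 time points ranged from −3.78 for collagen X a1 probe 1 to −0.80 for collagen a3(I) probe 1, just inside the threshold of 0.8 for entry on the list. Outside the category were 2 collagen-named probes. Their largest difference was −0.91 at 14 dpw for a collagen 1a probe and −1.55 at 7 dpw for a collagen protein probe. Thus the category and not the threshold set these apart. In intact skin 10 of 11 probes were lower in HFD fish, with a median of −0.20, but without HFD fish 3 only 3 were. At 1, 3, 7, 14, 36 and 57 dpw 11, 10, 8, 10, 10 and 10 of the 11 were lower in HFD wounds, and at 43 dpw 5 were. The median of the 11 was furthest down at 14 dpw, at −1.03, where the median over all probes was 0.03.

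The HFD and control groups did not overlap for 2 probes at 1 dpw, for 1 at 7 dpw and for 6 at 14 dpw, with HFD the lower group each time. Of all tested probes with a value in every fish, 1.34%, 2.2% and 1.52% had every HFD fish below every control fish on these days. In intact skin and at 3, 36, 43 and 57 dpw, when 0 of the 11 were apart, the share was 1.56%, 2.66%, 0.179%, 0.279% and 0.222%. The probes were Col6a2 and collagen XI a1 at 1 dpw and Col6a2 at 7 dpw. At 14 dpw they were collagen XI a1, collagen a1(VII), both probes of type I collagen a2 and both of collagen a3(I). Nothing is read from these counts, since the list was made from this contrast.

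Collagen X a1 had the widest gap. At 14 dpw probe 1 had levels of 3.70, 1.06, 2.00, −2.40 and 5.35 in HFD wounds and 5.88, 6.11, 5.05, 5.30 and 6.28 in control wounds. The HFD wounds spread widely, and their highest fish lay within the control range. The difference was −3.78 ± 1.33 (SE of the difference, n = 5 each). Probe 2 had levels of −4.56, −7.99, −6.67, −6.21 and −2.95 in HFD wounds and −2.33, −1.86, −3.27, −2.93 and −1.85 in control wounds, a difference of −3.23 ± 0.92. With normexp background correction the difference of probe 2 shrank to −1.17. Set against its own intact skin, probe 1 was −4.20 in HFD wounds and −0.51 in control wounds at 14 dpw, and at 7 dpw it was −4.90 in HFD wounds and −2.74 in control wounds. By 36 dpw these values were −1.09 in HFD wounds and −0.96 in control wounds.

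Collagen XI a1 and collagen a1(VII) were lower in HFD wounds at 1, 3, 7 and 14 dpw. Collagen XI a1 had levels of −3.61, −2.49, −2.05, −4.16 and −2.96 in HFD wounds and −0.84, −0.53, −1.17, −2.41 and −0.54 in control wounds at 7 dpw, with 1 HFD fish within the control range. The difference was −1.95 ± 0.51 (SE). Collagen a1(VII) had −1.52, −1.22, −1.60, −1.06 and −0.78 in HFD wounds and −0.40, 0.04, 0.09, −0.44 and 0.09 in control wounds at 14 dpw, and the groups did not overlap. The difference was −1.11 ± 0.19 (SE). The largest difference of collagen a1(VII) was −1.35 ± 0.42 (SE) at 7 dpw, where the groups overlapped.

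Col6a2 was lower in HFD wounds at 7 dpw by −1.14 ± 0.47 (SE), with levels of 0.15, −1.27, 1.16, 0.30 and 1.17 against 1.28, 1.22, 1.96, 1.30 and 1.47 in control wounds. At 14 dpw the difference was 0.04. In HFD wounds the probe was 0.51 above its own intact skin at 7 dpw and 1.41 at 14 dpw, and in control wounds 1.32 and 1.04.

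The type I chains differed most between densities at 14 dpw, by −1.05 to −0.80 over the 5 probes. At 7 dpw the 5 differences lay between −0.17 and 0.19. Type I collagen a2 probe 2 had levels of 2.48, 1.77, 1.83, 1.60 and 2.48 in HFD wounds and 3.46, 3.21, 2.71, 3.00 and 3.02 in control wounds at 14 dpw, with no overlap. PLOD3 differed on the same day, by −1.03, with levels of −0.77, −1.0, −1.75, −1.41 and −0.84 in HFD wounds and −0.02, −0.20, −0.79, 0.35 and 0.06 in control wounds. Its groups overlapped. At 1 dpw the type I differences lay between −0.71 and −0.61, and at 3 dpw between −0.42 and −0.30. They lay between −0.42 and −0.17 at 43 dpw, and between −0.42 and −0.07 at 36 and 57 dpw.

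**Figure D3:**
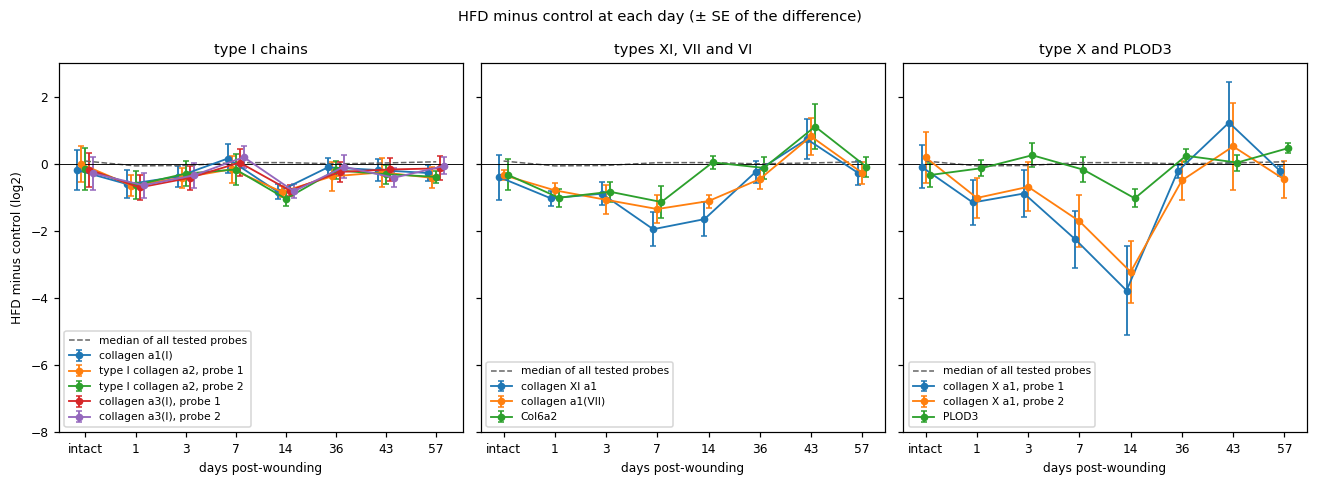
HFD minus control on the log2 scale (y axis) in intact skin and at 1 to 57 days post-wounding (x axis) for each probe, with the SE of the difference as bars and the median of all tested probes as the dashed line. The type I probes and PLOD3 dip at 14 dpw, collagen XI a1, collagen a1(VII) and Col6a2 are lowest at 7 dpw, and the collagen X a1 pair reaches −3.78 and −3.23 at 14 dpw. The probes were chosen for this difference.

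The positive differences at 43 dpw were larger with 1 control fish than without it, save that of PLOD3. Control fish 1 had a collagen X a1 probe 1 level of −0.52, where the other 4 control fish had 5.21 to 5.61. Its Col6a2 level was −1.64, against 1.08 to 1.97 in the others. With all fish, the differences at 43 dpw were 1.23 for collagen X a1 probe 1, 1.11 for Col6a2, 0.81 for collagen a1(VII), 0.73 for collagen XI a1, 0.52 for collagen X a1 probe 2 and 0.03 for PLOD3. Without control fish 1 they were 0.03, 0.49, 0.37, 0.25, −0.67 and 0.16, so that only that of collagen X a1 probe 2 changed sign. The mean level of the 6 epidermal markers was −1.84 in this fish and 1.34 to 1.98 in the other 4. Its leukocyte markers (7) stood at −1.53 against −0.40 to 0.50, and its SOX-9 probes (2) at −2.04 against −0.14 to 0.71. Its muscle, erythrocyte and fat markers lay within the range of the others. The part of these values in the result was not tested. The number of probes called against intact skin at 43 dpw was 5 with or without this fish.

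Within groups, the type I probes moved together from fish to fish. After the mean of each group was removed, the Pearson correlation over the 78 fish was 0.96 between collagen a1(I) and type I collagen a2 probe 2, and 0.77 or more for every pair of the 5 probes. The collagen X a1 pair had 0.81. Between collagen a1(I) and collagen X a1 probe 1 the value was 0.37, and between collagen a1(I) and Col6a2 it was −0.14. The highest value between chains of different types was 0.62, for Col6a2 and collagen a1(VII). Control fish 1 at 43 dpw was the lowest of its group for both (−1.64 and −1.86, group means 0.84 and −0.09). The correlation was not taken without this fish. PLOD3 had 0.43 to 0.63 with the type I probes and −0.40 with Col6a2. The points share arrays and scaling, and the values are descriptions.

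Enzymes and partners of collagen assembly on the supplementary list were set beside the chains. Like the collagens, the genes of this and the following lists were taken from that supplementary list. Protein-lysine 6-oxidase, the lysyl oxidase that cross-links collagen, fell at 1, 3 and 7 dpw (log2 fold changes −0.84, −2.35 and −1.72) and rose at 36, 43 and 57 dpw (1.71, 1.63 and 1.41). SPARC, a collagen-binding matrix glycoprotein, did the same (−1.11, −2.25 and −1.25, then 1.53, 1.49 and 1.37). Procollagen C-endopeptidase enhancer 1, which aids the removal of the C-propeptide, was lower at 1, 3, 7 and 14 dpw (−2.03, −2.78, −2.86 and −2.83) and was not called later. The 2 probes named as collagens outside the category were both called lower at 3 and 7 dpw and at no day higher.

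The matrix proteases were higher in wounds on the days when most chains were lower, and at 36 and 43 dpw some of them were higher together with type I collagen. Of the 11 probes for metalloproteinases and an inhibitor of them, 11 were called higher at 1 and 3 dpw, 10 at 7 and 14 dpw, and 5, 3 and 1 at 36, 43 and 57 dpw. At 57 dpw 1 was called lower, and on the other days 0 were. The share of all tested probes called higher was 10.9%, 13.4%, 10.5% and 10% at 1, 3, 7 and 14 dpw. At 36, 43 and 57 dpw it was 9.68%, 8.06% and 8.29%, and 23% were called lower at 57 dpw. Several of these probes stand for the same enzyme. Collagenase 3 (MMP-13), which cuts fibrillar collagen, was 7.72 ± 0.45 (SE) higher on the log2 scale at 3 dpw, 3.67 higher at 14 dpw and −0.40 at 57 dpw, where it was not called. Metalloproteinase inhibitor 2 (TIMP-2) was 4.88 ± 0.23 higher at 3 dpw and 3.20 higher at 14 dpw.

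Other matrix proteins followed several courses. Of 10 probes, 3 were called higher and 6 lower at 3 dpw, where 13.4% and 23.8% of all tested probes were. At 36 dpw 6 were called higher and 2 lower, where 9.68% and 25.8% of all probes were. Fibronectin, the adhesive protein of the provisional matrix, rose from 1 dpw (1.88 ± 0.32) to a high at 36 dpw (5.00 ± 0.32). Matrix Gla protein, an inhibitor of calcification, was lower at every day, with −4.48 ± 0.45 at 14 dpw and −3.38 ± 0.45 at 57 dpw. Mimecan, a small leucine-rich proteoglycan of collagenous tissue, had −2.80 at 3 dpw and 2.37 at 57 dpw. Periostin, which binds type I collagen, had −2.30 at 3 dpw, 0.91 at 36 dpw and −0.07 at 57 dpw, the last not called.

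**Figure D4:**
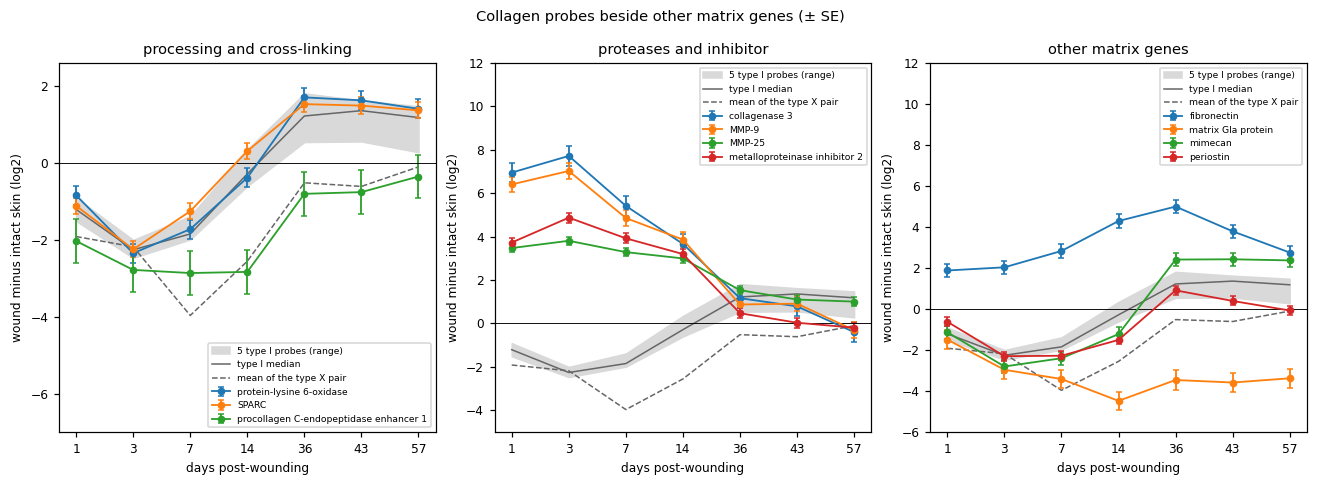
Log2 fold change of wounded over intact skin (y axis) at 7 days after wounding (x axis) for other matrix genes, with SE bars, beside the range and median of the 5 type I probes (grey) and the mean of the collagen X a1 pair (dashed). Protein-lysine 6-oxidase and SPARC run near the type I band, procollagen C-endopeptidase enhancer 1 stays low to 14 dpw, and the proteases are highest at 3 dpw, when the type I band is lowest.

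The probes whose levels were most like the type I mean over the 78 fish were sought among the named probes of the supplementary list. The highest Pearson correlations were those of a further collagen 1a probe (0.98), SPARC (0.97), serine protease 23 (0.97), protein-lysine 6-oxidase (0.96) and mimecan (0.93). These ranked 3, 5, 7, 8 and 29 among all tested probes outside the category, so some unnamed probes were closer. For the collagen X a1 pair the highest were procollagen C-endopeptidase enhancer 1 (0.90), papilin b (0.89), a serine proteinase inhibitor (0.83), galectin-4 (0.78) and trypsin-1 (0.78). The first 2 of these ranked 1 and 2 among all tested probes outside the category. For collagen XI a1 the highest was serine protease 23 (0.90), for collagen a1(VII) a histone H1-beta probe (0.89) and for Col6a2 ectonucleoside triphosphate diphosphohydrolase 2 (0.90). Days of wounding and scan campaigns are shared by all these values.

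Bulk RNA was measured, in which fewer cells of a type and less RNA per cell cannot be told apart. Some marker probes of other cell types moved over the same days. In wounds all 3 erythrocyte markers were called higher at 1, 3, 7 and 14 dpw. Of 7 leukocyte markers, 4 were called higher and 2 lower at 1 dpw and 5 higher and 1 lower at 3 dpw. Of 6 epidermal markers, 3 were called higher at 1 dpw and 4 higher and 1 lower at 3 dpw. The 2 fat markers went apart, with 1 called higher and 1 lower from 1 to 14 dpw, and neither SOX-9 probe was called on these days. Among 5 muscle markers, 2 were called higher and 1 lower at 1 dpw, and 0 and 2 at 3 dpw. At 7 dpw 0 were called higher and 1 lower, and at 14 dpw 2 and 0. The share of all tested probes called higher at 1, 3, 7 and 14 dpw was 10.9%, 13.4%, 10.5% and 10%. The share called lower was 17.4%, 23.8%, 19.6% and 18.1%. At 36, 43 and 57 dpw, when type I collagen was high, 4 of 5 muscle markers were called higher. On these days 2, 3 and 3 of the 6 epidermal markers were called lower and 1, 0 and 0 higher, and 3 of the 7 leukocyte markers were called higher and 1 lower on each day. Of the erythrocyte markers 1 of 3 was called higher on each day, 1 of 2 SOX-9 probes was called lower at 36 and 43 dpw, and neither fat marker was called. Over all tested probes 9.68%, 8.06% and 8.29% were called higher on these days and 25.8%, 24.2% and 23% lower. The mean level of the muscle markers was 1.81 to 2.42 in HFD wounds and 1.23 to 2.63 in control wounds at 36 dpw, against −1.74 to −0.96 in HFD intact skin and −1.53 to −0.09 in control intact skin. The part of these values in the collagen results was not tested.

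Between densities at 14 dpw, the mean level of the epidermal markers was 2.57 to 3.13 in HFD wounds and 1.93 to 2.46 in control wounds, without overlap. That of the leukocyte markers was 0.88 to 1.43 in HFD wounds and 0.14 to 0.97 in control wounds. The muscle markers lay at −1.03 to 0.57 in HFD wounds and −0.07 to 0.95 in control wounds, and the SOX-9 probes at 0.34 to 0.86 in HFD wounds and −0.08 to 0.91 in control wounds. The erythrocyte markers ranged from −0.90 to 0.99 in HFD wounds and from 0.51 to 1.21 in control wounds, and the fat markers from −0.17 to 0.77 in HFD wounds and from 0.01 to 1.48 in control wounds. All these markers came from the supplementary list, which was selected on the difference between densities, so their gaps are a description only. Of all single probes with a value in every fish, 2.87% did not overlap at 14 dpw, in either direction. The part of the markers in the collagen difference was not tested.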

How the data were processed

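RNA of skin was labelled with Cy3 and hybridised to a 15k oligonucleotide array, 1 sample per array. The labels name an RNeasy kit and the methods a PureLink kit, and which was used was not settled. For every array the authors deposited the scanner's output. Its intensity values, for 15377 spots, came from Feature Extraction 12.0.1.1 with background subtracted and arrays not yet normalized to each other. They also deposited a table of scaled intensity values, used as an alternative. 

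Controls (536) and flagged outliers (at most 45 on an array) were dropped. Saturation was found in 0 spots. The log2 intensity, less the 75th percentile of its array, entered 1 linear model of 16 groups and 78 fish, fitted by limma (3.58.1) under R (4.3.3) with moderated variances. Probes were tested when well above background on 8 or more fish. Each wound group of both densities was averaged and set against the averaged intact groups. The number of arrays limits the precision. Groups came from the labels, and each fish of a group is 1 replicate from the same tank, so that p-values measure the spread between fish of a tank.

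The members and lists were chosen with earlier results of these data known. Probe names came from the supplementary list, whose values were not used. All 11 members are named, and other probes only when on the lists drawn from it or among the 5 of highest likeness. Alternatives were quantile normalization, normexp (offset 50, on median spot signals since the files hold no means), the authors' table, other filters, outlier spots kept, no fold threshold, the study's criteria on unadjusted p, only the groups compared, each density against its own intact skin, 1 of the repeated arrays, slide or replicate number as a block, and each fish left out in turn. Slide as a fixed block and leaving out slide 10 were added after the data were seen. Arrays whose values were identical were looked for, and 0 pairs were found.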

Additional observations from a re-analysis of the deposited data

Results flagged for a closer look

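In 10 of 176 combinations of probe and group, 1 fish lay far from the others of its group by Dixon's criterion. Chance flags about 1 in 20 groups. In control fish 1 at 43 dpw the level of collagen X a1 probe 1 was −0.52 (others 5.21 to 5.61) and that of Col6a2 −1.64 (others 1.08 to 1.97). In control fish 1 at 3 dpw collagen a1(I) was 0.90 (others −0.58 to −0.17) and type I collagen a2 probe 2 was 1.69 (others 0.10 to 0.42).

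For collagen X a1 probe 2, HFD intact fish 3 had −3.22 (others −0.76 to −0.35), HFD fish 5 at 1 dpw had −2.07 (others −4.40 to −3.73) and HFD fish 1 at 3 dpw had −6.07 (others −3.67 to −3.21). Type I collagen a2 probe 1 was 0.57 in HFD fish 3 at 36 dpw (others 2.22 to 2.48). PLOD3 was 1.1 in HFD fish 5 at 36 dpw (others 0.13 to 0.41) and 0.52 in control intact fish 8 (others −0.42 to −0.30).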

How the results depend on the processing

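No alternative turned the direction of a called value. The number of probes called against intact skin moved by over 1.5 times in these cases. With no fold threshold 7 were called at 36 dpw. The authors' scaled values gave 9 calls at 36 dpw, 10 at 43 dpw and 10 at 57 dpw, all higher, where the median of all probes was near 1 and 95%, 95.7% and 96% of calls over all probes were higher, against 27.3%, 24.9% and 26.5% in the main scaling and 47.9%, 47.1% and 45.8% with quantile normalization. At 1, 3, 7 and 14 dpw the higher share was 63.4%, 69.1%, 81.7% and 78.2% in that table, 49.1%, 24.8%, 13.6% and 31.9% with normexp, 49.2%, 48.6%, 49.4% and 49.9% with quantile normalization, and 38.5%, 35.9%, 34.9% and 35.6% in the main scaling. No count is given for each density against its own intact skin, since those comparisons share fish with the difference that chose the probes. Leaving out each fish in turn gave 8 to 10, 10 to 10, 10 to 11, 4 to 5, 4 to 5, 5 to 6 and 4 to 5 calls from 1 to 57 dpw, 6 to 7, 4 to 5 and 6 to 7 for the first 3 steps between days, and 0 for each step between 36, 43 and 57 dpw. The number of probes lower in HFD intact skin was 3 to 11 without 1 fish, 3 being without HFD intact fish 3. In wounds from 1 to 57 dpw it was 10 to 11, 10, 7 to 10, 10 to 11, 8 to 10, 4 to 6 and 8 to 10. Same-numbered fish of different groups did not deviate together on average (mean r −0.01 over 525 pairs, and 0.00 over 2326 pairs with different numbers). No label says that the numbers pair fish, and a mean r near 0 cannot settle it. With the replicate number as a block 8, 10, 10, 3, 4, 5 and 4 probes were called against intact skin from 1 to 57 dpw. Numbers 6, 7 and 8 occurred only among control intact fish, so the block took these fish out of the comparison. The control intact baseline then rested on fish 5 alone, and these counts also reflect that loss. Lost under the block were type I collagen a2 probe 1 at 1 and 57 dpw (log2 fold changes −0.90 and 0.83) and Col6a2 at 7 and 14 dpw (0.65 and 0.95, with limma adjusted p = 0.20 and 0.055). Collagen X a1 probe 2 could not be tested at 3, 7, 14 and 43 dpw when every compared array had to be well above background. With slide as a fixed block collagen a1(VII) at 7 dpw was −0.69 and short of the fold threshold. Without slide 10 collagen X a1 probe 1 was called lower at 43 dpw (−1.70) and type I collagen a2 probe 1 at 57 dpw (0.78) was not called. Signal over background limits the lowest collagen X a1 values.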
